A study of Mus musculus with 33 samples.

Results

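Type I interferon-stimulated antiviral genes were followed in 3 immune cell populations sorted from mouse pancreatic tumours after radiotherapy, interleukin 12 (IL-12) or both. A list of 46 genes was looked up by gene symbol, and all 46 were found among the 53735 gene names of each of the authors' 9 deposited result tables. C57BL/6 mice carried KCKO pancreatic ductal adenocarcinoma cells that had been injected orthotopically, beside implanted titanium markers for aiming the beam. The populations were inflammatory monocytes (IM, sorted as CD45+CD11b+Ly6C+Ly6G-), macrophages of the tumour (TAM, CD45+CD11b+Ly6CmodLy6G-F480+) and CD8 T cells (CD45+CD8+). Each population had an unirradiated group, a group given stereotactic body radiotherapy (SBRT, 4 fractions of 6 Gy on days 6 to 9), a group given IL-12 microspheres (0.5 µg of recombinant IL-12 in 2 mg of beads, into the tumour on day 10), and a group given both, called the combination here. The labels name empty microspheres as a control without saying which groups received them. There were 33 libraries, 3 in every group of IM and CD8 T cells, and in TAM 3 after IL-12 but 2 after SBRT, after the combination and without treatment.

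Type I interferons bind a receptor made of IFNAR1 and IFNAR2, whose kinases JAK1 and TYK2 phosphorylate STAT2. STAT2 and IRF9 are subunits of a complex that binds the interferon-stimulated response element (ISRE) in the promoters of antiviral genes. Interferon gamma uses another receptor and acts mainly on gamma-activated sites (GAS), and many antiviral genes respond to either kind of interferon. The listed genes are therefore a readout of interferon responses that does not by itself name the interferon. They encode sensors of viral nucleic acid, enzymes that stop translation or degrade RNA, proteins that block virus entry or release, and the factors that keep the response going.

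A value called a log2 fold change below is the one in the authors' deposited tables, treated over unirradiated, shrunken by the authors' DESeq2 fit and followed by the standard error its Wald statistic implies. A gene is said to have risen or fallen when its deposited adjusted p was below 0.05. The tables hold a mean over libraries and no value for a single library, so neither the depth nor the number of libraries that showed each direction is known. Nothing in the labels says that each library came from a separate mouse, and the p-values measure only the spread between these libraries. In each population the 3 treated groups shared the same unirradiated libraries.

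In both myeloid populations more of the antiviral genes passed as higher after IL-12 and after the combination than after SBRT alone, though fewer passed than did not in each table. The difference in counts between treatments was not tested. In TAM the IL-12 group had 3 libraries and the SBRT group 2. The median log2 fold changes there, 0.51 and 0.41, lay closer together than the counts. The part of group size in the counts was not tested. In IM, 5 of 46 rose and 1 fell after SBRT, where 0.379% of all 19273 tested genes rose and 0.14% fell. After IL-12, 21 rose and 1 fell in IM (1.91% and 1.33% of all tested genes), and after the combination 22 rose and 1 fell (3.69% and 3.03%). The 1 member that fell in IM was Trim12a in each table. In TAM, 6 rose after SBRT, 20 after IL-12 and 18 after the combination, and none fell by the deposited test. Of all tested genes in TAM, 0.933% rose and 1.15% fell after SBRT, 0.651% rose and 0.284% fell after IL-12, and 2.24% rose and 1.97% fell after the combination.

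CD8 T cells had few calls. Of the 45 members with an adjusted p there, 0 rose after SBRT, 2 after IL-12 and 3 after the combination, and none fell. The background in CD8 T cells was 0.306% higher and 0.165% lower after SBRT, 1.48% and 1.04% after IL-12, and 4.51% and 2.96% after the combination. Rsad2 was the member without a deposited p in these cells.

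The sizes were modest. The median log2 fold change of the 46 members in IM was 0.22 after SBRT, 0.38 after IL-12 and 0.37 after the combination, beside a median of -0.02 over all tested genes in each of those tables. In TAM it was 0.41, 0.51 and 0.54, beside medians of 0.00, -0.01 and 0.00. In CD8 T cells it was 0.19, 0.15 and 0.08, beside 0.00, -0.01 and -0.03. Values above 0 were held by 38, 42 and 38 of 46 members in IM and by 43, 46 and 44 in TAM. In CD8 T cells they were held by 36, 32 and 30 of 45, and a treated group that is higher in many members at once rests each time on the same unirradiated libraries.

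**Figure D1:**
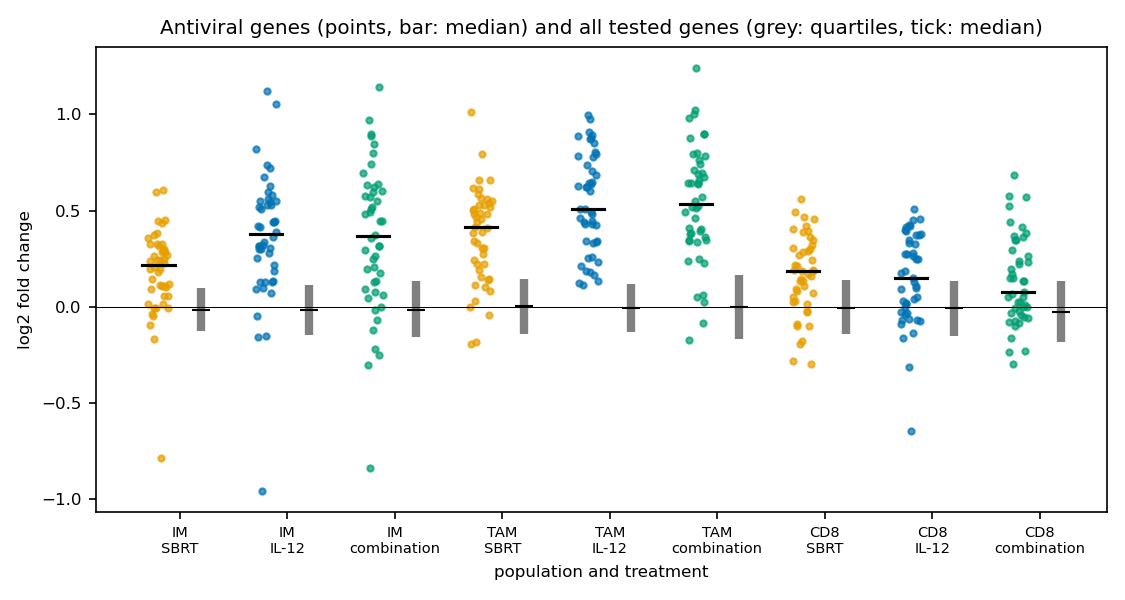
Deposited log2 fold change against unirradiated (vertical axis) in the 3 treatments of each population. Coloured points are the antiviral genes with their median as a bar; beside them the grey bar spans the quartiles of all tested genes and the tick is their median. The medians of the antiviral genes lie between 0.22 and 0.54 in IM and TAM, and 0.08 to 0.19 in CD8 T cells.

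The markers of each label had their highest summed level in the population of that label, though in IM the macrophage markers summed higher than the monocyte markers. On each population's own scale, the summed level of 8 macrophage markers was 272446 in IM, 1272240 in TAM and 10221 in CD8 T cells, and that of 8 CD8 T cell markers was 1790, 1650 and 261985. The summed level of 8 monocyte markers was 245863 in IM, 51281 in TAM and 31635 in CD8 T cells. In IM, 2 of these monocyte markers rose (Ly6c2 and Plac8) and 4 fell after IL-12, and 2 rose and 5 fell after the combination. Of 8 macrophage markers in IM, C1qb rose after IL-12 (0.53), and C1qa (0.60), C1qb (0.71) and C1qc (0.74) rose and Ms4a7 fell (-0.87) after the combination. Of 6 dendritic cell markers in IM, Flt3 and Cd209a fell after IL-12 (-1.36 and -1.76) and the combination (-1.46 and -2.31), and Clec9a (0.73) and Batf3 (0.58) rose after the combination. In TAM no macrophage or CD8 T cell marker passed, and Plac8 rose and F13a1 fell in all 3 tables. In CD8 T cells no monocyte, macrophage or CD8 T cell marker passed. The macrophage markers there had medians of 0.22, -0.15 and -0.48 after SBRT, IL-12 and the combination, with 7, 1 and 0 of 8 above 0. All 13 mitochondrially encoded genes, which bear on RNA quality, had values below 0 in every IM and TAM table, with medians of -0.29, -0.27 and -0.32 in IM and -0.28, -0.32 and -0.10 in TAM after SBRT, IL-12 and the combination, and 1 of them passed in IM after the combination (mt-Nd4l). Plasmacytoid dendritic cell markers, from a cell type known for type I interferon, had summed levels of 2510 in IM, 3786 in TAM and 6480 in CD8 T cells, with at most 2 of 8 passing in any table and none at 0. Pacsin1 rose in IM after IL-12 and after the combination, where Tcf4 fell. In TAM, Cd300c rose after SBRT, and Pacsin1 and Cd300c rose after the combination. Pacsin1 fell in CD8 T cells after the combination. The medians of these markers lay between -0.35 and 0.12. What part these shifts have in the antiviral gene values was not tested.

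**Figure D2:**
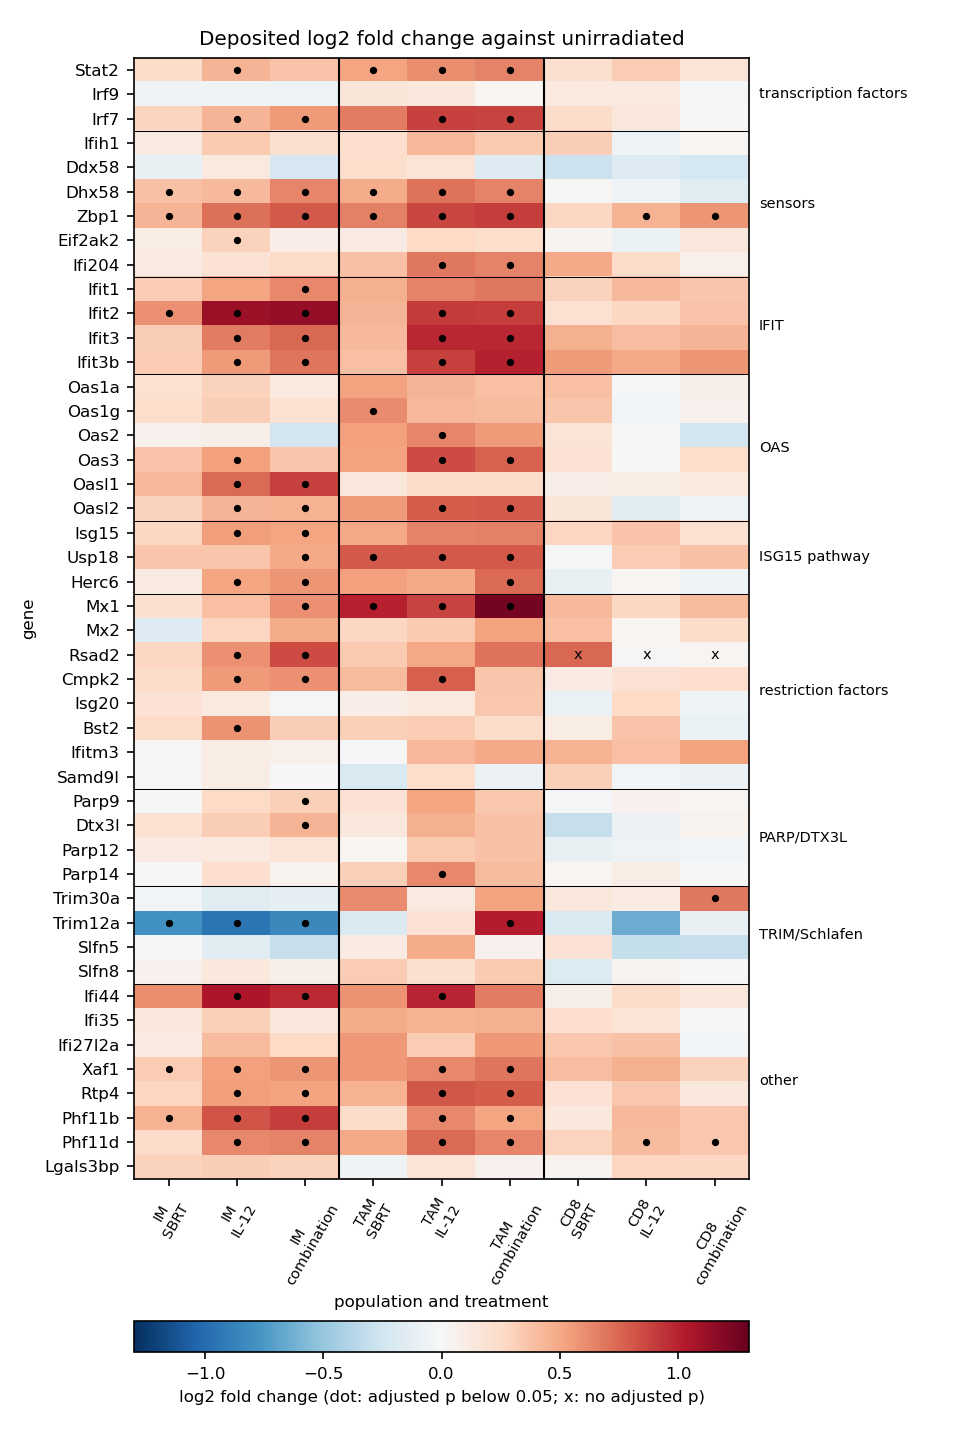
Deposited log2 fold change against unirradiated of each antiviral gene (rows, grouped by role) in the 9 tables (columns), red above 0 and blue below. Dots mark an adjusted p below 0.05 and x marks no adjusted p. Ifit2 reaches 1.14 in IM and Mx1 reaches 1.24 in TAM after the combination, and Trim12a is blue across IM and red in TAM after the combination.

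Among the transcription factors, Irf7 and Stat2 rose and Irf9 did not pass in any table. IRF7 amplifies type I interferon production. In IM, Irf7 had log2 fold changes of 0.29 ± 0.12 after SBRT, 0.44 ± 0.12 after IL-12 (adjusted p = 0.012) and 0.55 ± 0.12 after the combination (adjusted p = 0.00026). In TAM its values were 0.66 ± 0.22, 0.89 ± 0.21 (adjusted p = 0.0051) and 0.88 ± 0.22 (adjusted p = 0.0045), so the single SBRT value missed the threshold in both populations. Stat2, a subunit of the complex that binds the ISRE, rose in TAM in all 3 tables (0.51 ± 0.14, 0.60 ± 0.13 and 0.64 ± 0.14). In IM it rose after IL-12 (0.44 ± 0.13, adjusted p = 0.026) and had 0.37 ± 0.13 after the combination (adjusted p = 0.058). Irf9, the DNA-binding subunit, lay between -0.07 and 0.15 in all 9 tables. In CD8 T cells the 3 factors lay between -0.02 and 0.33, with none called.

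The sensors were led by Zbp1, a sensor of left-handed nucleic acid helices that can start necroptosis. Zbp1 rose in each of the 6 myeloid tables, with 0.44 ± 0.10, 0.72 ± 0.10 and 0.80 ± 0.10 in IM and 0.66 ± 0.14, 0.87 ± 0.13 and 0.90 ± 0.14 in TAM after SBRT, IL-12 and the combination. In CD8 T cells it was at 0.27 ± 0.14 after SBRT and rose after IL-12 (0.45 ± 0.14, adjusted p = 0.041) and after the combination (0.57 ± 0.14, adjusted p = 0.0014). As folds, its combination values were 1.74 in IM, 1.86 in TAM and 1.48 in CD8 T cells.

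Dhx58, a helicase that regulates the RIG-I-like receptors, rose in all 6 myeloid tables and in none of CD8 T cells. Its values were 0.38 ± 0.10, 0.42 ± 0.10 and 0.63 ± 0.10 in IM and 0.48 ± 0.14, 0.71 ± 0.13 and 0.65 ± 0.14 in TAM, against 0.02, -0.06 and -0.16 in CD8 T cells. The receptors Ddx58 (RIG-I) and Ifih1 passed in no table: Ddx58 had -0.09, 0.13 and -0.22 in IM, and Ifih1 had 0.11, 0.34 and 0.21. Ifi204, a DNA sensor, rose in TAM after IL-12 (0.69 ± 0.15) and the combination (0.64 ± 0.16), and lay between 0.11 and 0.25 in IM. Eif2ak2, the kinase PKR that halts translation, rose in 1 table, IM after IL-12 (0.30 ± 0.09, adjusted p = 0.030), and had 0.09 ± 0.09 after the combination.

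The IFIT genes, whose proteins bind viral RNA ends and block their translation, lie side by side on chromosome 19 and included the member with the highest value in IM. Ifit2 (chr19:34550694-34576419) rose in IM by 1.51-fold after SBRT (log2 0.60 ± 0.14, adjusted p = 0.010), 2.17-fold after IL-12 (1.12 ± 0.14, adjusted p = 3.4e-12) and 2.21-fold after the combination (1.14 ± 0.14, adjusted p = 3.3e-13). In TAM it rose 1.88-fold after IL-12 (0.91 ± 0.21) and 1.87-fold after the combination (0.90 ± 0.22), with 0.44 ± 0.22 after SBRT. Ifit3 had 0.32, 0.67 and 0.74 in IM and 0.42, 0.98 and 0.98 in TAM, rising after IL-12 and the combination in both. Ifit3b followed with 0.33, 0.56 and 0.69 in IM and 0.39, 0.89 and 1.001 in TAM. Ifit1 rose in 1 table, IM after the combination (0.62 ± 0.19, adjusted p = 0.017), and had 0.69 ± 0.24 in TAM there (adjusted p = 0.079). For CD8 T cells the 4 genes lay between 0.19 and 0.57 with none called.

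The regions before the starts of 3 IFIT genes are shown because Ifit3 and Ifit3b cannot be fully told apart by reads. Of the 50-base windows of their exons, 51.2% of those of Ifit3 and 45.0% of those of Ifit3b also occur in another gene, mainly in each other, so their values are uncertain as separate measurements. The sequences are from RefSeq (build GRCm38.p6), 5′ to 3′ on the gene's strand, here the plus strand, and capitals mark matches to the ISRE letters GAAANNGAAA or their reverse complement TTTCNNTTTC. They cover chr19:34583382-34583441 for Ifit3, chr19:34607778-34607837 for Ifit3b and chr19:34640779-34640838 for Ifit1.
Ifit3: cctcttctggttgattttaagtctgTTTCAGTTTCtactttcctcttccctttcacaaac
Ifit3b: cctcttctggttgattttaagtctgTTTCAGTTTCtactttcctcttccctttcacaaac
Ifit1: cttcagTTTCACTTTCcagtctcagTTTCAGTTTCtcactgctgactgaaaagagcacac
The shown stretches of Ifit3 and Ifit3b are identical, at positions -147 to -88 from the start of Ifit3 and -179 to -120 from that of Ifit3b. Each of the 3 genes held 2 matches in its whole 300-base window, and Ifit2 held none.

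The OAS genes encode oligoadenylate synthetases, which activate the RNA-degrading enzyme RNase L, and like proteins. In IM, Oasl1 reached 0.74 ± 0.20 after IL-12 (adjusted p = 0.011) and 0.89 ± 0.20 after the combination (adjusted p = 0.00048), from 0.44 ± 0.20 after SBRT. In TAM, Oasl1 had 0.15, 0.25 and 0.25 and passed nowhere. Oasl2 rose after IL-12 and the combination in both populations, with 0.45 and 0.45 in IM and 0.78 and 0.79 in TAM. Oas3 rose after IL-12 in IM (0.53 ± 0.15) and TAM (0.85 ± 0.24) and after the combination in TAM (0.76 ± 0.25, adjusted p = 0.049), and had 0.36 ± 0.15 in IM after the combination (adjusted p = 0.15). Oas2 rose in 1 table, TAM after IL-12 (0.64 ± 0.18, adjusted p = 0.045), and had 0.07 and -0.25 in IM after IL-12 and the combination.

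Oas1a and Oas1g are near copies on chromosome 5, and 57.6% and 45.7% of their 50-base windows also occur elsewhere, mainly in each other. Oas1g rose in 1 table, TAM after SBRT (0.62 ± 0.18, adjusted p = 0.032), where Oas1a had 0.52 ± 0.18 (adjusted p = 0.12). In IM the pair lay between 0.13 and 0.32. Their start regions are shown because the ISRE matches, 2 in each that overlap by 4 letters, sit directly before the start. They cover chr5:120907526-120907564 for Oas1a and chr5:120887614-120887650 for Oas1g, both on the minus strand.
Oas1a: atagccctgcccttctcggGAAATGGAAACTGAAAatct
Oas1g: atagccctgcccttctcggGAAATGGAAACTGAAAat
Among CD8 T cells the 6 OAS genes lay between -0.23 and 0.39, with none called.

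The ISG15 pathway attaches the ubiquitin-like protein ISG15 to other proteins, with HERC6 as the mouse ligase and USP18 as the protease that removes it and also dampens signalling at IFNAR2. In IM, Isg15 rose after IL-12 (0.55 ± 0.11, adjusted p = 7.1e-05) and the combination (0.51 ± 0.11, adjusted p = 0.00016), with 0.26 ± 0.11 after SBRT. In TAM its values were 0.50 ± 0.22, 0.64 ± 0.21 and 0.66 ± 0.22, and none passed. Usp18 rose in all 3 TAM tables with near-equal values (0.79 ± 0.18, 0.80 ± 0.17 and 0.80 ± 0.18), and in IM after the combination (0.49 ± 0.13, from 0.36 and 0.37 after the single treatments). Herc6 rose in IM after IL-12 (0.52 ± 0.13) and the combination (0.57 ± 0.13) and in TAM after the combination (0.74 ± 0.18). The start region of Isg15 is shown because it held 3 ISRE matches, more than any other window of the list, at chr4:156200850-156200909 on the minus strand. The matches follow each other at steps of 6 letters and overlap by 4.
Isg15: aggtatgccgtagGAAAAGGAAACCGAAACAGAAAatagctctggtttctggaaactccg

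The restriction factors include Mx1, a dynamin-like GTPase that blocks viral ribonucleoproteins, which had the highest value of any member in TAM. Mx1 rose there 2.02-fold after SBRT (log2 1.01 ± 0.18, adjusted p = 1.2e-05), 1.83-fold after IL-12 (0.87 ± 0.17, adjusted p = 0.00016) and 2.36-fold after the combination (1.24 ± 0.18, adjusted p = 9.1e-09). In IM it had 0.21 ± 0.15 and 0.39 ± 0.15 after the single treatments and rose after the combination (0.60 ± 0.15, adjusted p = 0.0032). The Mx1 gene of C57BL/6 mice is known to carry a deletion that leaves no functional protein. Its neighbour Mx2 passed in no table, with -0.17, 0.28 and 0.48 in IM.

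Rsad2 (viperin) and Cmpk2, neighbouring genes on chromosome 12 whose proteins make and supply an antiviral nucleotide, both rose in IM after IL-12 (0.60 ± 0.17 and 0.55 ± 0.17) and after the combination (0.85 ± 0.17 and 0.60 ± 0.17). In TAM, Cmpk2 rose after IL-12 (0.78 ± 0.20, adjusted p = 0.016) and had 0.36 ± 0.21 after the combination, while Rsad2 had 0.51 ± 0.23 and 0.71 ± 0.25 and did not pass. Bst2 (tetherin), which holds budding virus at the cell surface, rose in 1 table, IM after IL-12 (0.58 ± 0.12, adjusted p = 0.00030), and had 0.32 ± 0.12 after the combination (adjusted p = 0.11). Ifitm3, which blocks fusion of entering virus, Isg20, an exonuclease, and Samd9l passed nowhere. Ifitm3 lay at 0.01 to 0.09 in IM, had 0.00, 0.43 and 0.49 in TAM, and had 0.45, 0.39 and 0.52 in CD8 T cells. The start regions of Bst2 (chr8:71537562-71537621, minus strand) and Rsad2 (chr12:26456538-26456597, minus strand) are shown because both genes rose in IM after IL-12, the first with a pair of matches and the second with a single match in the opposite orientation.
Bst2: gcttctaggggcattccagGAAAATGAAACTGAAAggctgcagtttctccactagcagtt
Rsad2: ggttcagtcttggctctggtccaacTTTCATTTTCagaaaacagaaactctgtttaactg

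The PARP genes encode proteins that transfer ADP-ribose, and the 4 members of this group had a median of 0.24 in IM and 0.48 in TAM after IL-12. Parp9 and Dtx3l, which act as a pair in ADP-ribosylation and ubiquitylation, rose in IM after the combination (0.31 ± 0.10, adjusted p = 0.036, and 0.44 ± 0.11, adjusted p = 0.0022). The pair starts from opposite strands and overlaps over 9.4% of the exon bases of Parp9 and 8.0% of those of Dtx3l, and the library kit did not mark strand. Parp14 rose in TAM after IL-12 (0.62 ± 0.17, adjusted p = 0.027) and had 0.04 ± 0.11 in IM after the combination. Parp12 lay between 0.11 and 0.18 in IM and between 0.03 and 0.39 in TAM, and in CD8 T cells the 4 genes lay between -0.30 and 0.09.

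Trim12a went against the list. This gene (chr7:104299894-104315466, minus strand) is a mouse relative of the retroviral restriction factor TRIM5. In IM it fell in all 3 tables, by 0.79 ± 0.20 after SBRT (adjusted p = 0.029), by 0.95 ± 0.20 after IL-12 (adjusted p = 0.00029) and by 0.84 ± 0.20 after the combination (adjusted p = 0.0017). In TAM it had -0.18 ± 0.21 and 0.18 ± 0.20 after the single treatments and rose 2.03-fold after the combination (1.02 ± 0.29, adjusted p = 0.016). For CD8 T cells it had -0.19 ± 0.23, -0.64 ± 0.22 and -0.10 ± 0.23, none called. Of its 50-base windows 10.4% also occur in another gene, most often Trim5.

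The other members of the TRIM and Schlafen group passed in 1 table. Trim30a, which restrains inflammatory signalling, rose in CD8 T cells after the combination (0.69 ± 0.18, adjusted p = 0.0038), from 0.14 and 0.11 after the single treatments, and had -0.04, -0.15 and -0.12 in IM and 0.61, 0.12 and 0.52 in TAM. Slfn5 and Slfn8, growth-regulating Schlafen genes, lay between -0.30 and 0.13 in IM and between 0.06 and 0.48 in TAM. The 4 genes had medians of -0.02, -0.15 and -0.21 in IM after SBRT, IL-12 and the combination, below 0 where the list as a whole was at 0.22 to 0.38.

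Among the remaining members, Phf11b and Ifi44 had the highest values in IM after IL-12 and the combination. Phf11b, whose product has a PHD finger, rose in IM in all 3 tables (0.45 ± 0.09, 0.82 ± 0.09 and 0.90 ± 0.09, the last with adjusted p = 7.1e-19) and in TAM after IL-12 (0.62 ± 0.12) and the combination (0.51 ± 0.14). Of its windows, 47.0% also occur in another gene, most often Phf11a. Its start region held 1 ISRE match (chr14:59341346-59341405, minus strand) and is shown as that of the member with the smallest adjusted p in IM.
Phf11b: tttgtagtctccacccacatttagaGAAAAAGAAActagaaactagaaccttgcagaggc
Phf11d rose after IL-12 and the combination in every population, with 0.63 and 0.64 in IM, 0.74 and 0.64 in TAM, and 0.41 ± 0.12 (adjusted p = 0.026) and 0.35 ± 0.12 (adjusted p = 0.046) in CD8 T cells. Both CD8 T cell calls were lost with adjustment over all genes that have a p (adjusted p = 0.058 and 0.095) and with statistics scaled by their robust spread (0.40 and 0.49).

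Ifi44, a microtubule-associated antiproliferative protein gene, rose in IM after IL-12 (1.05 ± 0.19) and the combination (0.97 ± 0.19) and in TAM after IL-12 (0.99 ± 0.21), and its 0.61 ± 0.18 after SBRT in IM did not pass (adjusted p = 0.12). Xaf1, a proapoptotic gene, rose in IM in all 3 tables (0.33, 0.53 and 0.58) and in TAM after IL-12 (0.63) and the combination (0.69). Rtp4, a chaperone of G protein-coupled receptors, rose after IL-12 and the combination in IM (0.54 and 0.52) and TAM (0.80 and 0.78). Ifi35, Ifi27l2a and Lgals3bp passed nowhere, with ranges of 0.10 to 0.41 in IM and -0.04 to 0.57 in TAM.

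**Figure D3:**
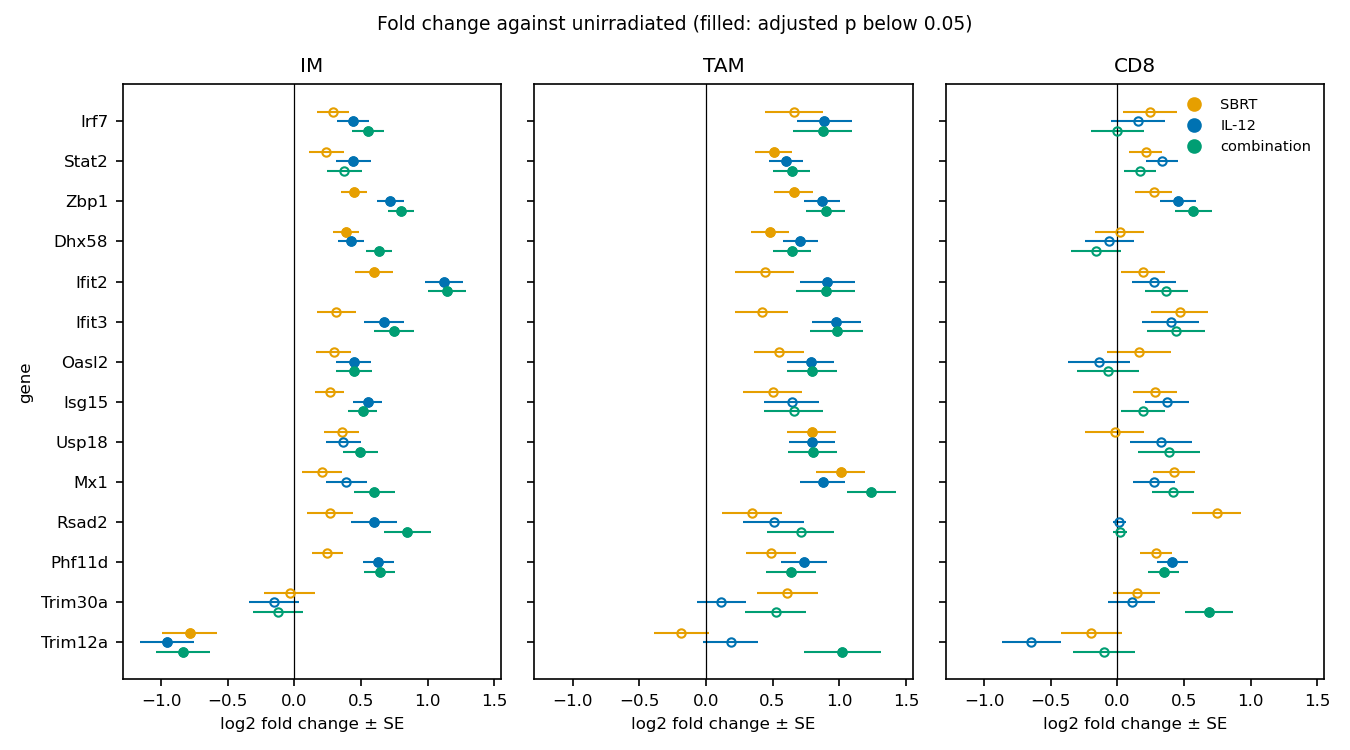
Deposited log2 fold change against unirradiated ± its standard error from the Wald statistic (horizontal axis) of 14 members in IM, TAM and CD8 T cells; filled points have an adjusted p below 0.05. Rsad2 in CD8 T cells has no deposited p. Zbp1 is filled in 8 of the 9 tables, and Trim12a lies at -0.95 to -0.79 in IM against 1.02 in TAM after the combination.

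The main question was whether the combination gave the antiviral genes more than either treatment alone. Against IL-12 alone no member passed the normal test of that difference in any population, a test whose error is too large since the unirradiated libraries are common to both effects. Once their variance was taken out, Trim12a passed in TAM. In IM the difference of the deposited log2 fold changes, combination minus IL-12, had a median of 0.01 over the 46 members and a range of -0.35 to 0.25. There were 0 members at an adjusted p below 0.05 (0% of all genes) and 0 at an unadjusted p below 0.05 (1.13% of all genes). For Ifit2 the difference was 0.02 (95% interval -0.37 to 0.42), for Zbp1 0.08 (-0.19 to 0.35), for Isg15 -0.04 (-0.34 to 0.27) and for Rsad2 0.25 (-0.23 to 0.73). The intervals leave room for moderate differences in either direction, so they do not show that the combination and IL-12 act alike. In TAM the median difference was -0.01 and the range -0.42 to 0.84, with 0 members called (0.232% of all genes). At an unadjusted p below 0.05 there was 1 member, Trim12a (0.84, 95% interval 0.15 to 1.53), beside 2.59% of all genes. Among CD8 T cells the median was -0.03, with 0 called (0.0144% of all genes). At an unadjusted p below 0.05 there were 2 members, Trim30a (0.58, 0.09 to 1.07) and Bst2 (-0.46, -0.85 to -0.07), beside 2.39% of all genes.

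Against SBRT alone the combination was higher in IM for some members before adjustment. The median difference, combination minus SBRT, was 0.15 in IM, and 10 of 46 members had an unadjusted p below 0.05, all higher after the combination, where 3.87% of all 18660 genes had one. None kept an adjusted p below 0.05 in the normal test, which called 0.418% of all genes. Of these 10 the largest were Mx2 (0.65, 95% interval 0.18 to 1.13), Rsad2 (0.58, 0.10 to 1.06), Ifit2 (0.55, 0.15 to 0.94), Phf11b (0.45, 0.19 to 0.71), Herc6 (0.45, 0.09 to 0.81) and Ifit3 (0.43, 0.01 to 0.84). This test leaves out that the unirradiated libraries are shared, which makes its error too large. With the variance of those controls removed, 7 members passed, where 2.23% of all genes did: Zbp1, Ifit2, Herc6, Mx2, Rsad2, Phf11b and Phf11d, with adjusted p from 0.00031 (Phf11b) to 0.042 (Rsad2).

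In TAM the median of combination minus SBRT was 0.15, with 0 members called (0.0406% of all genes) and 4 at an unadjusted p below 0.05 (1.29% of all genes). These were Trim12a (1.21, 95% interval 0.51 to 1.90), Ifit3b (0.61, 0.05 to 1.18), Ifit3 (0.56, 0.02 to 1.11) and Ifitm3 (0.49, 0.01 to 0.98). With the control variance removed, Trim12a alone of the members passed, both against SBRT (adjusted p = 0.0021, with 0.232% of all genes called) and against IL-12 (adjusted p = 0.034, with 1.5% called). For CD8 T cells the median was 0.02, with 0 called by the normal test (0.344% of all genes). At an unadjusted p below 0.05 there was 1 member, Trim30a (0.54, 0.05 to 1.03), beside 6.36% of all genes. With the control variance removed, 0 members passed in CD8 T cells against SBRT (4.29% of all genes) or IL-12 (0.483%), and 0 in IM against IL-12 (0.16%).

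The combination was also compared with the sum of the single effects. This difference had a median of -0.24 in IM, -0.42 in TAM and -0.21 in CD8 T cells, and it was above 0 for only 6 of 46 members in IM, 4 of 46 in TAM and 10 of 45 in CD8 T cells. The same unirradiated libraries enter all 3 effects, so the members' signs are not independent of each other. No member passed the adjusted test in any population, with or without the control variance. The shares of all genes called were 0.00594% in IM by both, 0.0348% and 0.0987% in TAM, and 0.00721% and 0.137% in CD8 T cells. At an unadjusted p below 0.05 there were 8 members in IM, 9 in TAM and 4 in CD8 T cells, beside 1.40%, 1.75% and 3.24% of all genes. Ifi44 had -0.69 (95% interval -1.32 to -0.06) in IM and -0.91 (-1.65 to -0.17) in TAM, and Usp18 had -0.79 (-1.40 to -0.18) in TAM, where its values after SBRT, IL-12 and the combination were 0.79, 0.80 and 0.80. Of the members at an unadjusted p below 0.05, Trim12a alone lay above 0, at 0.90 (0.21 to 1.60) in IM and 1.02 (0.22 to 1.83) in TAM. The 2 values differ in meaning. In IM, where Trim12a fell in all 3 tables, the combination gave a smaller fall than the sum of the single falls. In TAM, where it rose after the combination, that rise lay above the sum of the single effects.

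**Figure D4:**
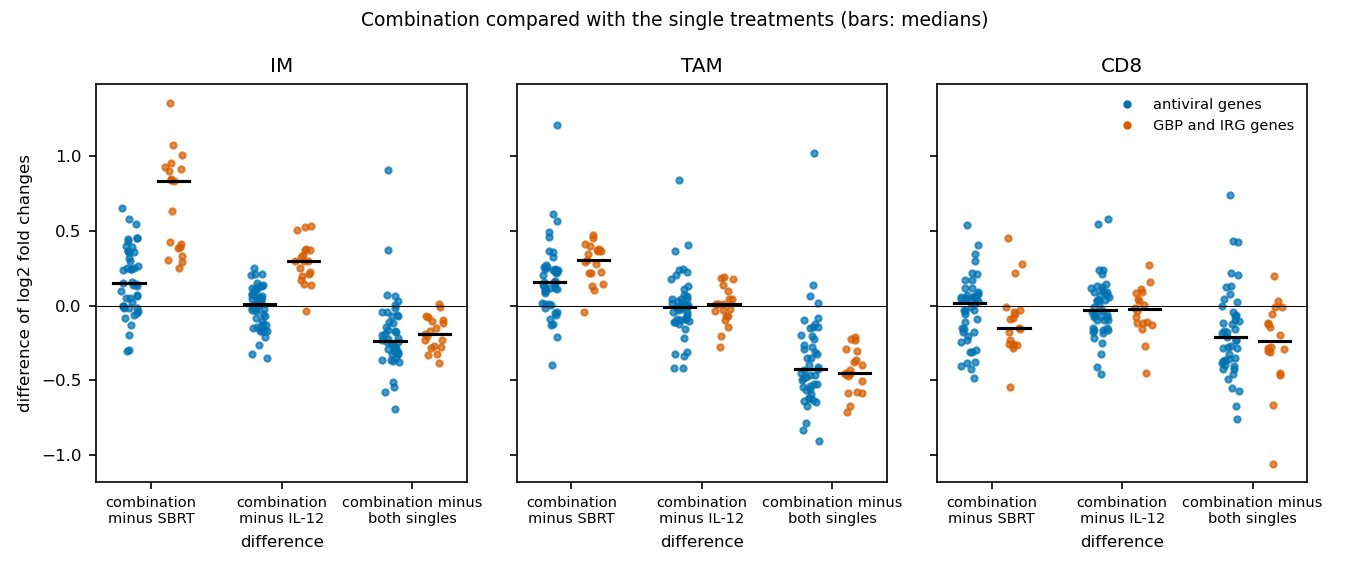
Differences of deposited log2 fold changes (vertical axis) in IM, TAM and CD8 T cells: combination minus SBRT, combination minus IL-12, and combination minus the sum of both. Blue points are antiviral genes and orange points are guanylate-binding protein (GBP) and immunity-related GTPase (IRG) genes, with medians as bars. In IM the medians of combination minus IL-12 are 0.01 for the antiviral genes and 0.30 for the GBP and IRG genes. In TAM they are -0.01 and 0.01.

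A neighbouring group of interferon-inducible genes was set beside them. The GBP and IRG genes encode GTPases that attack the vacuoles of intracellular pathogens and are known for strong induction by interferon gamma, and 19 listed ones were found. In IM, 8 rose after SBRT, 18 after IL-12 and 19 after the combination, with median log2 fold changes of 0.50, 1.01 and 1.35, and in TAM 3, 14 and 16 rose with medians of 0.50, 0.73 and 0.72. Among CD8 T cells 2, 1 and 1 rose, with medians of 0.15, 0.18 and 0.18. The shares of all tested genes that rose are those given above for the same comparisons. Combination minus SBRT in IM had a median of 0.84 and 9 of 19 passed the normal test (0.418% of all genes). Combination minus IL-12 in IM had a median of 0.30, was above 0 for 18 of 19, and 0 passed (0% of all genes). In the other populations its median was near that of the antiviral genes, at 0.01 in TAM (10 of 19 above 0) and -0.03 in CD8 T cells (8 of 18). Iigp1, for example, had 0.76 ± 0.12, 1.46 ± 0.12 and 1.83 ± 0.12 in IM, and Ifit2 0.60, 1.12 and 1.14. Whether the antiviral genes and the GBP and IRG genes differ as groups was not tested.

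Between populations the members' effects were compared directly, each against its own unirradiated group. IM and TAM share no library, but the labels do not say whether the same tumours gave more than 1 population. Of the members that rose after IL-12, 15 did so in both IM and TAM, 71.4% of those in IM and 75% of those in TAM. After the combination 14 did, 63.6% of those in IM and 77.8% of those in TAM, and after SBRT 2 did, Dhx58 and Zbp1 (40% and 33.3%). Over all genes by name, those that rose in both were 23.6% of the IM list and 61.8% of the TAM list after IL-12, 20.5% and 36.5% after the combination, and 19.2% and 8.14% after SBRT. Whether the members' shares differ from these was not tested. Phf11d and Zbp1 rose in all 3 populations after IL-12 and after the combination. The CD8 T cell calls of both genes were lost with statistics scaled by their robust spread, and that of Zbp1 after IL-12 also with adjustment over all genes that have a p. The effect in IM minus that in TAM had a median of -0.20 after SBRT, -0.14 after IL-12 and -0.19 after the combination. The member called was Trim12a after the combination, at -1.86 ± 0.35 (adjusted p = 8.5e-05), and 0 members passed after SBRT or IL-12. Of all genes, 0.47% were called after SBRT, 0.102% after IL-12 and 1.89% after the combination. Mx1 after SBRT was lower in IM than in TAM by an amount that did not pass (-0.80 ± 0.24, adjusted p = 0.095), as was Trim12a after IL-12 (-1.14 ± 0.29, adjusted p = 0.066).

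Against CD8 T cells the myeloid effects were higher for a few members. After IL-12 the effect on Ifit2 was 0.85 ± 0.22 higher in IM than in CD8 T cells (adjusted p = 0.019), the only member called there (0.832% of all genes). After the combination 4 members were higher in IM than in CD8 T cells, where 4.08% of all genes were called: Dhx58 (0.79 ± 0.21), Ifit2 (0.78 ± 0.22), Herc6 (0.63 ± 0.20) and Phf11b (0.55 ± 0.16). Trim30a was lower in IM (-0.81 ± 0.26, adjusted p = 0.047). In TAM, 4 members were higher than in CD8 T cells after the combination, where 5.42% of all genes were called: Trim12a (1.12 ± 0.37), Mx1 (0.82 ± 0.24), Dhx58 (0.81 ± 0.23) and Herc6 (0.80 ± 0.23). No member was called for SBRT between CD8 T cells and IM (0.0451% of all genes) or TAM (1.21%), or for IL-12 between TAM and CD8 T cells (0.544%). For the last of these, 16 of 45 members had an unadjusted p below 0.05, all higher in TAM, beside 8.75% of all genes.

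The ligands themselves showed no call. Of 20 type I and type III interferon genes looked up, 6 were at a level of 0 in IM, 16 in TAM and 13 in CD8 T cells, and at most 4 had an adjusted p in any table. Ifnb1, the gene of interferon beta, had a mean normalised level of 227 in IM and 313 in TAM, with log2 fold changes of -0.04, 0.28 and 0.28 in IM and 0.03, 0.29 and 0.09 in TAM. Its level in CD8 T cells was 2.36, without an adjusted p. Ifng, the gene of interferon gamma, had a level of 10716 in CD8 T cells and rose there after the combination (0.80 ± 0.21, adjusted p = 0.0038), from 0.38 ± 0.20 and 0.64 ± 0.21 after SBRT and IL-12. It also rose in TAM after the combination (1.22 ± 0.30, adjusted p = 0.0031) at a level of 135, where the summed level of the 8 CD8 T cell markers was 1650 and none of them passed (median 0.15). The part of other cells in that value was not tested.

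The receptor genes Ifnar1 and Ifnar2 passed in no table, with ranges of -0.24 to 0.01 in IM, -0.34 to 0.03 in TAM and -0.35 to -0.06 in CD8 T cells. Socs1, a feedback inhibitor of JAK kinases, rose in all 6 myeloid tables, with 0.63, 0.53 and 1.10 in IM and 0.63, 0.63 and 0.89 in TAM. Its values in CD8 T cells were -0.07, 0.12 and 0.16, with none called. Of the interferon gamma axis, Ifngr1 fell in IM after IL-12 (by 0.69 ± 0.13) and the combination (by 0.71 ± 0.13), Ifngr2 fell in CD8 T cells after both of these (by 0.81 ± 0.25 and 1.18 ± 0.24), and Irf1 passed nowhere, with 0.02, 0.10 and 0.25 in IM.

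Of 17 genes that sense or process nucleic acid, or that switch on or restrain type I interferon, 1 was listed at 0 in every population (Trex1). The reason for that 0 was not tested. Tlr7, a sensor of single-stranded RNA, fell after SBRT and the combination, by 0.64 ± 0.15 and 0.75 ± 0.15 in IM and by 0.74 ± 0.21 and 1.09 ± 0.21 in TAM, with -0.26 and -0.40 after IL-12. Mavs, the adaptor of the RIG-I-like receptors, fell in IM after the combination (by 0.56 ± 0.16). Samhd1, which depletes nucleotides needed by viruses, rose in TAM after IL-12 (0.68 ± 0.15) and the combination (0.90 ± 0.16). Ikbke rose in TAM after SBRT (0.62 ± 0.18), and Irf8 in TAM after the combination (0.53 ± 0.15). For CD8 T cells Mb21d1, the gene of the DNA sensor cGAS, rose after the combination (0.48 ± 0.14) and Ikbke fell (by 0.63 ± 0.19).

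Family members outside the list were counted in the same way. Of 37 found, 35 were tested in each myeloid table, and 1, 9 and 11 rose in IM and 3, 9 and 9 in TAM after SBRT, IL-12 and the combination, with none lower. Of all tested genes, 0.379%, 1.91% and 3.69% rose in IM and 0.933%, 0.651% and 2.24% in TAM. Ifit1bl1 had the highest value in IM (1.09 and 1.25 after IL-12 and the combination), and Slfn1 in TAM (0.82, 0.98 and 1.02). Phf11a, the near copy of Phf11b, rose in all 6 myeloid tables, with 0.59, 0.93 and 1.06 in IM. Among CD8 T cells 0 of 34, 1 of 31 and 1 of 32 tested rose, Phf11c after IL-12 and Slfn3 after the combination. The shares of all tested genes there were 0.306%, 1.48% and 4.51%.

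Levels were compared between genes per kilobase of exon, on the scale of mean normalised counts. Ifitm3 was the highest member in IM (115107 per kilobase) and TAM (63353), and Ifi27l2a in CD8 T cells (11111). In IM the next were Ifi27l2a (55072), Isg15 (13340) and Bst2 (8462). Ifi44 was the lowest in each population, at 113 in IM, 167 in TAM and 9.82 in CD8 T cells. The 2 highest members in IM, Ifitm3 and Ifi27l2a, passed in no table, and the lowest, Ifi44, and Ifit2 held the 2 log2 fold changes above 1 in IM after IL-12. No spread over libraries can be given for these means, so no order between neighbours is tested.

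Promoter letters were set beside the responses as a description. A RefSeq window from 250 bases before to 50 after the start existed for 35 of the 46 members (41 windows). The ISRE letters GAAANNGAAA, on either strand, occurred in 21 of the 41 windows (51.2%) and in 1131 of all 32851 windows (3.44%). The GAS letters TTCNNNGAA, which read the same on both strands, occurred in 7 of 41 (17.1%) and in 8.30% of all windows. In Bst2 and Ifitm3 a GAS match overlaps an ISRE match. By gene, 19 of 35 held an ISRE match and 8 held at least 2 in a window. In IM after the combination, 6 of the 19 with a match and 10 of the 16 without rose, with median log2 fold changes of 0.21 and 0.50. After IL-12 in IM it was 9 of 19 and 9 of 16 (0.34 and 0.44), and in TAM 5 of 19 and 7 of 16 (0.44 and 0.48). The other tables were mixed. In IM 1 of 19 and 2 of 16 rose after SBRT (0.23 and 0.24). In TAM 6 of 19 and 6 of 16 rose after the combination (0.51 and 0.42), and 2 of 19 and 0 of 16 after SBRT (0.34 and 0.43). In CD8 T cells the medians with and without a match were 0.21 and 0.12 after SBRT. They were 0.04 and 0.16 after IL-12, and 0.15 and 0.03 after the combination. The 8 members with at least 2 matches, part of the 19, had other medians. After SBRT, IL-12 and the combination these were 0.26, 0.53 and 0.41 in IM and 0.44, 0.54 and 0.58 in TAM. In CD8 T cells they were 0.38, 0.38 and 0.28. None of these differences was tested. Ifit2, the member with the highest value in IM, held a GAS match centred at -236.5 from its start and no ISRE match in the window, and Trim12a held an ISRE match just after its start. A match here is a run of letters and not a measured binding site.

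**Figure D5:**
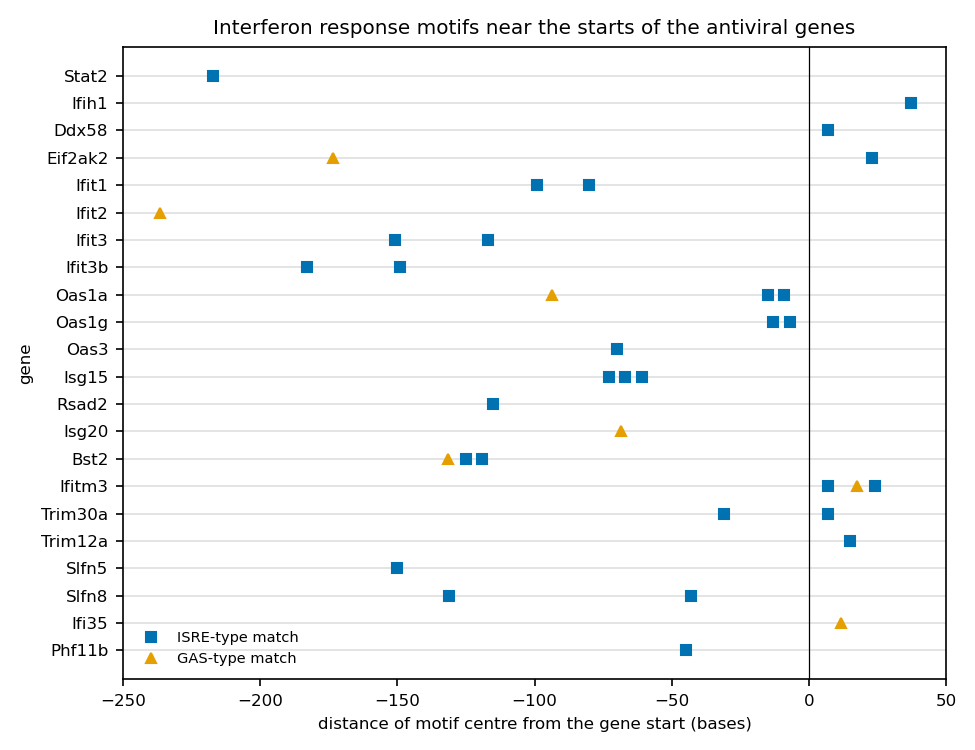
Position of each match to the ISRE letters (squares) and GAS letters (triangles) relative to the gene start (horizontal axis, bases, 0 at the start) in the members with any match (rows). Matches of Isg15, Oas1a, Oas1g and Bst2 stand as overlapping runs, and 19 of the 35 members with a window hold an ISRE match.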

How the data were processed

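RNA from 33 libraries in 12 groups was sequenced on Illumina TruSeq V2 libraries, which do not mark strand, per the labels' protocols. The submitters' processing notes name the build GRCm38 and the tools STAR 2.6.0c, Salmon, featureCounts, Subread, Trimmomatic 0.36 and FastQC 0.11.8. Their roles, and the DESeq2 version and design, are not given in the sources used here. The 9 deposited DESeq2 tables hold, per the file headers, a mean normalised signal per gene, a log2 fold change, a Wald statistic (a score), a p-value and an adjusted p-value that the authors computed. The deposited signal of a gene did not differ between a population's 3 tables. Fold changes were shrunken, and their ratio to the statistic was taken as the standard error. This is exact only if the statistic was computed from the shrunken value, which the sources do not say. Per-library values were not analysed here, so depth is unknown.

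A gene was called at a deposited adjusted p below 0.05. In all, 18 differences of deposited log2 fold changes were tested with a 2-sided normal test, errors added in squares, and Benjamini-Hochberg adjustment over genes with an adjusted p in all tables used. The scripts were tested on simulated data. Alternatives were an adjusted p below 0.01, adjustment over all genes with a p, a level of at least 50, statistics scaled by their robust spread, a shared standard error, and removal of control variance. Gene positions are from GENCODE M21, promoter windows from RefSeq (GRCm38.p6). The members and lists were chosen with earlier results of these data known. Named were all members by role, those passing a difference test or with calls that vary, and of other lists the interferon and receptor genes and the smallest adjusted p. Python 3.11.15, pandas 2.3.3 and scipy 1.17.1 were used. A gene of the receptor and signalling list is not reported here.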

Additional observations from a re-analysis of the deposited data

Results flagged for a closer look

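The effects of a treatment on a member differed between 2 populations, by the normal test of the difference of deposited log2 fold changes with Benjamini-Hochberg adjustment over the genes that have a deposited adjusted p in both tables, in 11 cases. For IL-12 in IM against CD8 T cells it was 1 of 45 members, with 0.832% of all genes called. After the combination it was 1 of 46 in IM against TAM (1.89%). Against CD8 T cells it was then 5 of 45 in IM (4.08%) and 4 of 45 in TAM (5.42%). Whether the members' shares differ from those of all genes was not tested. For Trim12a after the combination the effect in IM was 1.86 below that in TAM (-1.86 ± 0.35, adjusted p = 8.5e-05), and the effect in TAM was above that in CD8 T cells (1.12 ± 0.37, adjusted p = 0.046). Dhx58 was higher after the combination in IM than in CD8 T cells (0.79 ± 0.21, adjusted p = 0.0080) and in TAM than in CD8 T cells (0.81 ± 0.23, adjusted p = 0.015). Herc6 did the same (0.63 ± 0.20 in IM, adjusted p = 0.047, and 0.80 ± 0.23 in TAM, adjusted p = 0.018). Ifit2 was higher in IM than in CD8 T cells after IL-12 (0.85 ± 0.22, adjusted p = 0.019) and after the combination (0.78 ± 0.22, adjusted p = 0.015). After the combination Phf11b was higher in IM than in CD8 T cells (0.55 ± 0.16, adjusted p = 0.024), Mx1 higher in TAM than in CD8 T cells (0.82 ± 0.24, adjusted p = 0.017), and Trim30a lower in IM than in CD8 T cells (-0.81 ± 0.26, adjusted p = 0.047).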

How the results depend on the processing

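Of the 100 calls of members against unirradiated, 70 were kept at a deposited adjusted p below 0.01, 86 with adjustment over all genes with a p, 75 with statistics scaled by their robust spread, and 100 with genes of a level of at least 50. Except with the control variance removed, the share of all genes called under an alternative was not counted, so those member counts have no background beside them. At an adjusted p below 0.01, the members higher were 2 after SBRT and 13 after IL-12 in IM, 3 after SBRT in TAM and 0 after IL-12 in CD8 T cells. Adjusting over all genes with a p left 0 after IL-12 in CD8 T cells. With scaled statistics, 14 members were called after the combination in IM and 9 calls were lost there. The lost ones were Ifit1, Oasl2, Usp18, Mx1, Cmpk2, Parp9, Dtx3l, Trim12a and Rtp4. All 5 members that had risen in IM only after the combination were among them (Ifit1, Usp18, Mx1, Parp9 and Dtx3l). In CD8 T cells 0 members were called after IL-12 and 0 after the combination. Trim12a was also lost after the combination in TAM with scaled statistics and at 0.01. With the control variance removed, 7 members differed between the combination and SBRT in IM, and 1 in TAM for each of combination minus SBRT and combination minus IL-12. Of 11 calls between populations, a shared standard error kept 9 and added others. Its counts were 1 for IL-12 in IM against TAM, 2 for IL-12 in IM against CD8, 2 for IL-12 in TAM against CD8, 2 for the combination in IM against TAM, and 8 for the combination in IM against CD8. It lost Mx1 and Trim12a in TAM against CD8. Adjusting over all genes kept 8 of 11, with 3 in IM against CD8 after the combination, where Herc6 and Trim30a were lost, and Trim12a lost in TAM against CD8. Apart from the shared standard error, the alternatives change thresholds, errors or the genes adjusted over and no fold change, so none of those could reverse a direction. The shared standard error rescales the effects that enter a difference, so it could change the size or the sign of that difference. For other changes the cause was not tested. No paired analysis was possible because the files hold result tables without per-library values. For the same reason leaving out replicates and other normalisations were not run. The depth of each library is unknown.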
